A study of Mus musculus with 21 samples.

Results

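The genes described here are the cytosolic ribosomal protein genes of SMB21, a cell line from a mouse medulloblastoma of the sonic hedgehog type. They were taken by symbol: every row of the read count table whose symbol has the form Rpl or Rps plus a number or letter, with the P stalk genes and Rpsa, and without pseudogenes and the ribosomal S6 kinases. This gave 84 of the 24047 rows of the table. Of these, 43 encode proteins of the large (60S) subunit, 31 of the small (40S) subunit, 3 the P stalk, and 7 are paralogs, copies of a core gene elsewhere in the genome. Quisinostat (JNJ), an inhibitor of histone deacetylases (HDACs), or the solvent DMSO was given to the cells for 2 h or 24 h. Other cells were infected with a virus that makes a short hairpin RNA against firefly luciferase (shLuc, the control), Hdac1 (shHdac1) or Hdac2 (shHdac2), and were selected with puromycin. All 7 groups are of this 1 line and have 3 libraries each, 21 in all. For the JNJ dose and the time from infection to harvest no source used here gives a value. Whether the 3 libraries of a group were separate cultures is also unstated, so p-values measure the spread between libraries, which may be technical.

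A ribosome holds each of its core proteins in about equal amount, and surplus free protein is degraded. Their mRNAs are among the most abundant of growing cells, and most begin with a run of pyrimidines (C and T bases), the 5′ terminal oligopyrimidine tract, through which the growth kinase mTOR controls their translation. Some of the proteins also act off the ribosome: Rpl5 and Rpl11 bind Mdm2 and so stabilise p53 when ribosome assembly fails. Paralogs can replace their core partner on the ribosome. RPL22 protein is known to repress the gene of its own paralog, Rpl22l1.

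After 24 h with JNJ, 1 of 79 tested genes of the family was called, Rpl22l1, which fell, where 33.1% of all genes were called. A fit that pairs libraries by replicate number called 7 members, 6 lower and 1 higher, of 6633 genes called among 14467. Without any of 4 single libraries the call of Rpl22l1 was lost. Rpl22l1 went from 19.8 ± 1.80 to 11.6 ± 0.649 CPM (counts scaled to a common library size; mean ± SD, n = 3 per group), while Rpl22 read 533 ± 57.9 and 571 ± 51.6 CPM. No member was called after 2 h with JNJ, where 13.7% of all genes were, nor in either knockdown. With shHdac1 and shHdac2 only 0.749% and 1.68% of all genes were called, so no call among 79 genes says little there. The family as a whole varied more between libraries of 1 group than between JNJ and DMSO at either time. After TMM scaling, the 4 lowest family levels among the drug libraries were at 24 h, in DMSO replicates 1 and 2 and JNJ replicates 1 and 2. By share of reads DMSO 2 h replicate 1 was among the lowest as well.

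The libraries had 23094799 to 39341784 counted reads (median 31426312). In the knockdowns the targeted genes were lower as labelled: Hdac1 was at 30.6 ± 1.99 CPM with shHdac1 against 94.7 ± 5.86 with shLuc, and Hdac2 at 50.3 ± 3.08 with shHdac2 against 318 ± 23.1. All 10 markers of cerebellar granule progenitors, the cell of origin of such tumours, were expressed, with a summed level of 1161 to 2307 CPM per library. Their sum was lower with JNJ than with DMSO at 2 h (1161 to 1398 against 1646 to 2176 CPM) and at 24 h (1509 to 1684 against 2011 to 2307 CPM). Markers of red cells summed to at most 0.149 CPM, of microglia to 3.35 CPM, of endothelium to 12.7 CPM and of oligodendrocytes to 22.7 CPM. The summed endothelial and oligodendrocyte markers overlapped between JNJ and DMSO at 24 h, though Kdr, an endothelial marker, was higher with JNJ (2.26 to 3.62 against 0.0819 to 0.325 CPM). Of the astrocyte markers 2 of 4, led by Slc1a2, were above 1 CPM on average. The summed astrocyte markers were lower with JNJ at 24 h, at 136 to 199 CPM against 398 to 465 with DMSO. Nearly all of this was Slc1a2 (128 to 194 against 388 to 456 CPM). Gfap was lower too, Aldh1l1 was higher, and Aqp4 was near 0. The summed fibroblast markers, at a low level, were higher, at 19.4 to 36.4 CPM against 6.71 to 9.74. Most of this rise was Col1a1 (8.70 to 27.4 against 0.218 to 1.43 CPM), while Pdgfra overlapped and Col1a2 and Dcn were near 0. In such bulk samples fewer cells of a type and less RNA per cell cannot be told apart, and the part of these shifts in the ribosomal protein values was not tested.

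A ribosomal pseudogene row sets the libraries apart in 2 sets. Rpl14-ps1, a pseudogene copy of Rpl14, had 4.35 to 5.78 counts per 100 counts of Rpl14 in 10 libraries: all DMSO libraries, all JNJ 2 h libraries and JNJ 24 h replicate 1. In the other 11 libraries, JNJ 24 h replicates 2 and 3 and all shRNA libraries, it had 0.962 to 1.22. The sets do not overlap. Of 19932 rows with counts, 21 were higher in all 10 than in any of the 11 and 2 were lower, and none of the 79 tested ribosomal protein genes was among them. With so few rows split, this says little about the family. The labels mention several sequencing runs without saying which library was in which, and what makes the sets differ was not tested. Only the JNJ 24 h group straddles them. The number of members called at 24 h, their median and Rpl22l1 are therefore also given from the libraries of the first set. The other 24 h values are not, and they rest on JNJ libraries of both sets.

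The transcript starts of members that the results turn on are shown first, because a pyrimidine run near the start was more frequent in this family than over all symbols. Each line gives 20 bases before and 20 from the annotated start in RefSeq (mouse build GRCm38.p6), 5′ to 3′ on the gene's strand, with the longest run of C and T in capitals. The first 4 are members that were lower with JNJ at 24 h or lay near the threshold, Rps10 is the core member with the highest 24 h value, Rpl22 and Rpl7l1 complete the paralog pairs, and Rps6 and Rps18 are core members with a long run.
Rpl22l1 (chr3:28805488-28805527, plus strand): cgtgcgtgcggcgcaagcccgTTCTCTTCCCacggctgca
Rps27l (chr9:66946066-66946105, plus strand): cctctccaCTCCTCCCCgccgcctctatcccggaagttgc
Rpl39 (chrX:37085203-37085242, minus strand): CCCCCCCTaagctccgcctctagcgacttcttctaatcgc
Rps26 (chr10:128626487-128626526, minus strand): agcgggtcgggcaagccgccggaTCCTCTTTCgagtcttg
Rps10 (chr17:27635225-27635264, minus strand): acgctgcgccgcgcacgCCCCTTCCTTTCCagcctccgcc
Rpl22 (chr4:152325706-152325745, plus strand): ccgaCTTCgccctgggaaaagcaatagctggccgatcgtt
Rpl7l1 (chr17:46782637-46782676, minus strand): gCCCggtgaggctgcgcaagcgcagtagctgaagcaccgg
Rps6 (chr4:86857348-86857387, minus strand): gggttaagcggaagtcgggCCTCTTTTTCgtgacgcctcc
Rps18 (chr17:33955646-33955685, minus strand): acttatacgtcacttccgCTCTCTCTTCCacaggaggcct
Rps6, Rps18 and Rps10 have runs of 10, 11 and 13 bases across the start, and the paralog Rpl22l1 has one of 10 bases just after it. Rpl22 and Rpl7l1 have runs of 4 and 3 bases.

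Of 63 members with a RefSeq entry, 28 (44.4%) had a run of at least 8 pyrimidines in this window, against 15.9% of all 27025 symbols with an entry. In the 300 bases around the start, CTTTCC on the gene's strand was present in 34.9% of members and 14.0% of all symbols. CCGGAAG, on either strand, the core that ETS factors bind, was present in 39.7% against 9.12%. A CTTTCC can overlap a pyrimidine run, and a match of letters is no proof of use. With JNJ at 24 h, the 28 members with a run of 8 or more had a median log2 change of -0.05 and the 31 tested members without had -0.02. Members with and without a run in this window thus had near equal medians. A run that lies wholly before the annotated start, as in Rpl39 and Rps27l, is not part of the annotated transcript. The 28 members are thus not all mRNAs with a tract at their 5′ end.

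Of the 84 genes, 79 had enough reads to be tested, in the drug and in the shRNA libraries. The 5 others were Rpl26, with no read in any of the 21 libraries, and the paralogs Rpl3l, Rps4l, Rpl10l and Rpl39l, with 10, 8, 3 and 3 reads in all 21 libraries together. Rpl3l, Rpl10l and Rpl39l are known as tissue-restricted copies, of muscle or testis. The highest member was Rplp0, the stalk base protein, with a mean of 2282 CPM of library totals, followed by Rpl4 with 1955 and Rpsa with 1886. Per kilobase of transcript, Rplp1, an acidic stalk protein, was highest, with 3195 CPM per kb. The 75 members at 100 CPM or more had a median of 715 CPM per kb.

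Besides Rpl26, 3 core genes stood far below the rest: Rpl34 with 2.64 CPM, Rpl30 with 1.89 and Rps27 with 1.77. All 3 encode core subunits, and of Rps27 the paralog Rps27l was expressed, at 104 CPM. The low rows were compared with the sequence that genes share. Counted was the share of 75-base stretches (the read length) found identically in another gene, over each gene's longest protein-coding transcript in GENCODE M21. Other transcripts of a gene can have other shares. The share was 19.0% for Rpl34, 35.5% for Rpl26, 60.7% for Rps27 and 71.8% for Rpl30. Among the 75 members at 100 CPM or more it ran from 0% in Rps3 to 92.5% in Rpl5, with a median of 41.3%. The shares of the low rows lie within the range of the others. Whether shared sequence has a part in the low rows was not tested. How reads with several matches were counted is not given, so levels of members with shared sequence, Rpl22l1 (58.6%) included, are uncertain. Rps27l and Rpl7l1 share 4.39% and 3.87%.

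The 84 genes took 3.75 to 6.69% of the counted reads of a library. With DMSO at 2 h the shares were 4.10, 6.11 and 6.69% in replicates 1 to 3, and with JNJ at 2 h 4.68, 5.46 and 6.06%. At 24 h they were 4.05, 3.75 and 4.47% with DMSO and 4.10, 4.53 and 4.59% with JNJ. The JNJ and DMSO libraries overlapped at both times. At 24 h the mean was 4.09% with DMSO and 4.41% with JNJ. Over reads outside the 50 genes with most counts it was 3.16% and 2.85%, so the direction turned. This second share also leaves out the members among those 50 genes, so it covers only a part of the family. The shRNA groups also overlapped, at 5.22 to 5.86% with shLuc, 5.08 to 6.17% with shHdac1 and 4.92 to 6.48% with shHdac2.

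**Figure D1:**
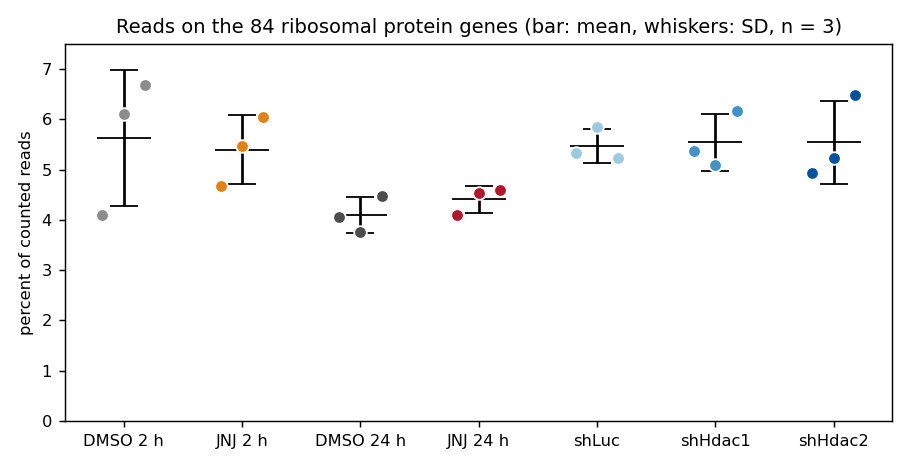
Percent of all counted reads that fell on the 84 ribosomal protein genes, for each library (points in replicate order) with the mean and SD of 3 libraries per group. The DMSO 2 h libraries spread from 4.10 to 6.69%, wider than any other group.

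The family moved together from library to library. Each gene's log2(CPM + 0.5) was set against its mean over the drug or the shRNA libraries, and the median over the 79 tested members was taken as the library's offset. Offsets were -0.20, 0.42 and 0.66 in DMSO 2 h replicates 1 to 3, and 0.02, 0.25 and 0.49 in JNJ 2 h. They were -0.29, -0.38 and -0.04 in DMSO 24 h, and -0.43, -0.26 and -0.17 in JNJ 24 h. In DMSO 2 h replicates 2 and 3 all 79 members lay above their own mean, and in JNJ 24 h replicate 1 none did.

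The shRNA offsets were smaller, from -0.19 to 0.27. Replicate 3 was the highest with shHdac1 (0.22) and with shHdac2 (0.27), while shLuc replicates 2 and 3 both had 0.03. Removing each library's offset lowered the median SD within groups from 0.30 to 0.12 log2 units in the drug libraries, with a smaller SD for 73 of 79 members. In the shRNA libraries it went from 0.19 to 0.08, with a smaller SD for 69 members. The other 5360 and 5175 well expressed genes had median SDs of 0.25 and 0.14 without any such step. The offset is the median of these same members, so part of the fall in SD follows from how it is defined. The fall is thus a description and no test that the family moves together. The order of the members changed little: over the 79 genes the rank correlation of group mean CPM was 0.995 between JNJ and DMSO at 2 h and 0.973 at 24 h, a description over genes, which are not replicates.

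**Figure D2:**
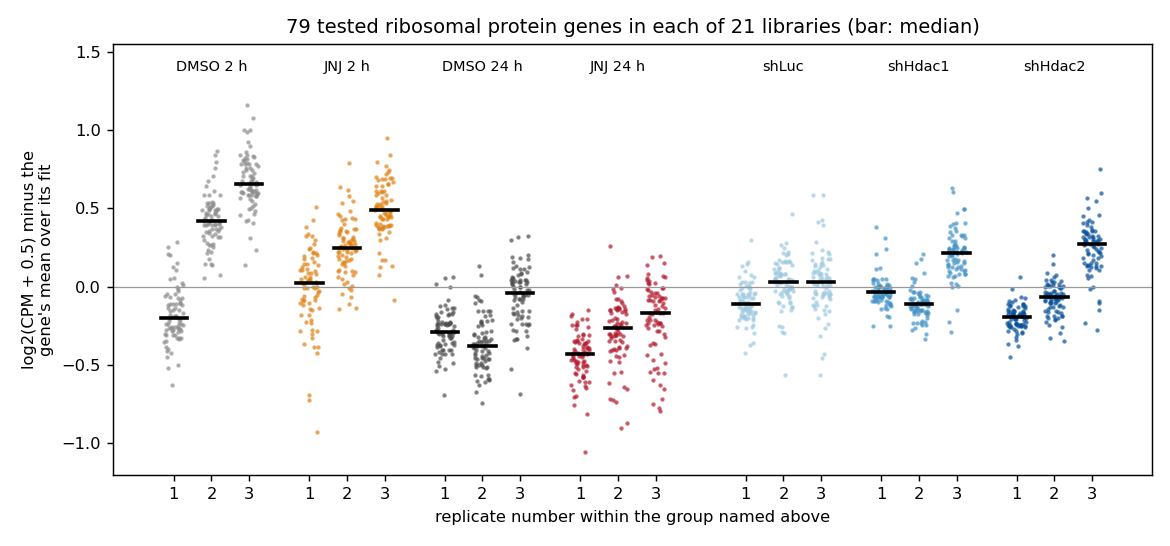
Each point is 1 of 79 tested ribosomal protein genes in 1 library: log2(CPM + 0.5) minus that gene's mean over the 12 drug or the 9 shRNA libraries, with the median as a bar. Whole clouds shift between replicates, for example from -0.20 to 0.66 among the DMSO 2 h libraries.

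Short transcripts outside the family moved partly with it. In 152 other genes of at most 800 nt and at least 50 CPM the offsets were 0.05, 0.25 and 0.27 in DMSO 2 h and -0.19, -0.14 and 0.06 in DMSO 24 h. In JNJ 2 h replicate 1 they parted, with -0.38 for the short genes and 0.02 for the family. The part of transcript length in the family's offsets was not tested.

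The comparison of JNJ with DMSO asks which genes respond to inhibition of HDACs. At 24 h, Rpl22l1 was lower and none of the 78 other tested members was called by edgeR's quasi-likelihood test (adjusted p under 0.05 over all genes). Of all 14467 genes tested, 33.1% were called, 15.1% in the lower direction. The median log2 change of the family was -0.05, against 0.01 over all genes, and the median size of change was 0.13, against 0.52. No member changed 2-fold by its fitted value, which 24.9% of all genes did. Among other genes whose mean reached 100 CPM, 2861 in number, 32.2% were called, 742 lower and 180 higher.

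The intervals bound what could have been missed. For 70 of the 79 members the 95% interval of the 24 h change lay within a 2-fold rise or fall, and for 28 within 1.5-fold. Rps6, the S6 kinase target of the small subunit, had 313, 281 and 364 CPM with DMSO and 263, 297 and 343 with JNJ (log2 -0.08, interval -0.66 to 0.49). Rpl5 had 473, 439 and 507 CPM with DMSO and 490.5, 525 and 541 with JNJ (log2 0.13, interval -0.32 to 0.58), and its partner Rpl11 had a log2 of 0.01. Rplp0, much used as a reference gene for PCR, had 1817, 1524 and 2205 CPM with DMSO and 1514, 1629.9 and 1758 with JNJ (log2 -0.18, interval -0.81 to 0.45). In each of these genes the libraries of both groups overlapped.

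**Figure D3:**
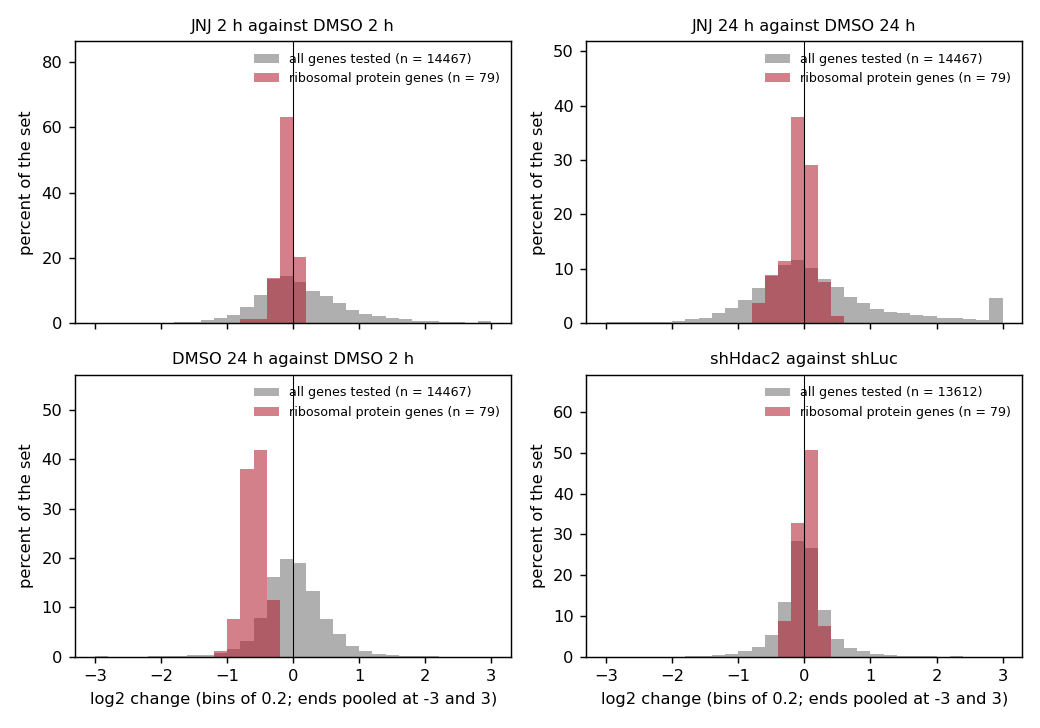
Distribution of fitted log2 changes in 4 comparisons, for all genes tested (grey) and for the 79 ribosomal protein genes (red), as the percent of each set in bins of 0.2. The family is narrow around 0 with JNJ and shHdac2, and lies to the left of 0, at a median of -0.59, between the DMSO times.

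Rpl22l1, at a low level for the family, had 19.2, 18.3 and 21.8 CPM with DMSO at 24 h and 11.7, 12.2 and 10.9 with JNJ. All JNJ libraries lay below all DMSO libraries, with a log2 change of -0.77 (SE 0.23, edgeR adjusted p = 0.0230). In the only JNJ 24 h library of the set with more Rpl14-ps1 the change was as large (-0.78), with adjusted p = 0.226 from that single library. The threshold was missed when DMSO 24 h replicate 3 was dropped (adjusted p = 0.0749), and likewise on dropping any JNJ 24 h library (adjusted p = 0.0548, 0.0503 and 0.0764 for replicates 1, 2 and 3). Leaving out 1 library kept the log2 change between -0.85 and -0.70. Its partner Rpl22 had 523, 482 and 596 CPM with DMSO and 529, 556 and 629 with JNJ (log2 0.10, adjusted p = 0.747).

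Set against its partner in the same library, which needs no scaling, Rpl22l1 varied little among the drug libraries outside JNJ 24 h. Rpl22l1 had 3.67, 3.80 and 3.65 counts per 100 counts of Rpl22 with DMSO at 24 h and 2.20, 2.19 and 1.73 with JNJ. At 2 h it had 3.43, 3.35 and 3.76 with DMSO and 3.64, 3.61 and 3.78 with JNJ. The 9 drug libraries other than JNJ 24 h thus lay between 3.35 and 3.80, and the 3 JNJ 24 h libraries below all of them. This ratio was added after the values of Rpl22l1 were seen. An exact permutation test of 3 against 3 libraries, two-sided, cannot go below p = 0.1, which it reached at 24 h (adjusted p = 0.3 over 12 such tests).

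In the shRNA libraries the ratio was 3.16, 3.26 and 4.50 with shLuc, 2.73, 2.73 and 3.09 with shHdac1, and 2.68, 2.42 and 2.55 with shHdac2. Both knockdowns lay below their shared control with no overlap (exact permutation p = 0.1 each, the smallest possible, adjusted 0.3). The wide shLuc group came from replicate 3. By CPM alone Rpl22l1 was not called in either knockdown (edgeR log2 -0.12, adjusted p = 0.877 with shHdac1, and -0.30, adjusted p = 0.478 with shHdac2). Rpl22 was not called either, but its log2 change stayed above 0 when 1 library was left out. It ran from 0.12 to 0.27 with shHdac1 and from 0.06 to 0.28 with shHdac2. A lower ratio can thus come from either gene, and the part of each was not tested.

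**Figure D4:**
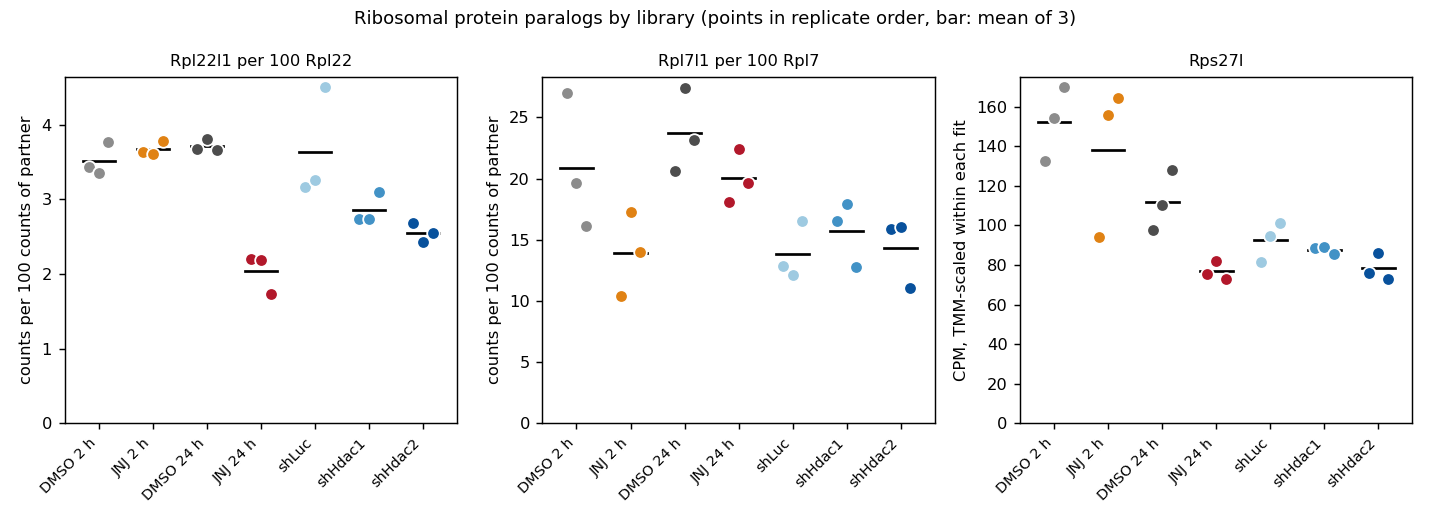
Rpl22l1 counts per 100 Rpl22 counts, Rpl7l1 counts per 100 Rpl7 counts, and Rps27l in CPM, for each library by group, with group means as bars. The Rpl22l1 ratio lies at 1.73 to 2.20 in the JNJ 24 h libraries and at 3.35 to 3.80 in the 9 other drug libraries.

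Rps27l, a paralog of Rps27 and a known p53 target, had 97.4, 110.3 and 128 CPM with DMSO at 24 h and 75.5, 82.2 and 72.8 with JNJ. The groups did not overlap, but the gene missed the threshold (log2 -0.54, SE 0.20, edgeR adjusted p = 0.0567). Rps27 itself, near the floor of the table, had 1.53, 1.60 and 1.18 CPM with DMSO and 0.959, 1.31 and 0.670 with JNJ (log2 -0.55, adjusted p = 0.312). The third expressed paralog, Rpl7l1, had a log2 of -0.29 at 24 h (adjusted p = 0.376).

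Among the core genes, 8 were lower in all JNJ 24 h libraries than in any DMSO 24 h library, and with Rpl22l1 and Rps27l this makes 10 of 79 members (12.7%). Over all genes the groups did not overlap for 55.5%, and for 26.9% with JNJ lower. At an unadjusted p under 0.05 there were 5 members, all lower (43.3% of all genes in either direction): Rpl22l1, Rps27l, Rpl39, Rps13 and Rps26. The 8 were Rpl27a, Rpl30, Rpl34, Rpl39, Rplp1, Rps13, Rps26 and Rps4x, with log2 changes from -0.73 to -0.17, and of these Rpl30 and Rpl34 are among the low rows. Rpl39, a small protein of the exit tunnel, had 185, 157 and 230.1 CPM with DMSO and 138, 126 and 128 with JNJ (log2 -0.54, adjusted p = 0.0899). Rps26, a Diamond-Blackfan anaemia gene, had 403, 419 and 514 CPM with DMSO and 277, 351 and 332 with JNJ (log2 -0.47, adjusted p = 0.0933). Rps13 had 354, 312 and 395 against 245, 233 and 262 CPM (log2 -0.52, adjusted p = 0.110). No member was higher in all JNJ libraries.

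Rps10, of the small subunit, had the highest change at 24 h. It had 225, 218 and 258 CPM with DMSO and 255, 341 and 360.1 with JNJ (log2 0.45, adjusted p = 0.173), with 1 JNJ library inside the DMSO range. Libraries of the 24 h groups with the same replicate number deviated together, so a fit with a replicate block is also given. Replicate 1 did not pair at 2 h or between the DMSO times (residual correlations -0.0047 and -0.219). The block fit gave each replicate number 1 effect over all 12 drug libraries, so it does not rest on pairing at 24 h alone. It called 7 members at 24 h (and 6633 genes in all): Rpl22l1 (log2 -0.76, adjusted p = 0.00634), Rps27l (-0.53, 0.0167), Rps26 (-0.48, 0.0201), Rps13 (-0.51, 0.0309), Rpl39 (-0.52, 0.0466) and Rpl21 (-0.40, 0.0480) lower, and Rps10 higher (0.42, 0.0473). A fit of the 24 h groups alone also called 7 (of 6229 genes called in all), with Rps4x in place of Rpl21.

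**Figure D5:**
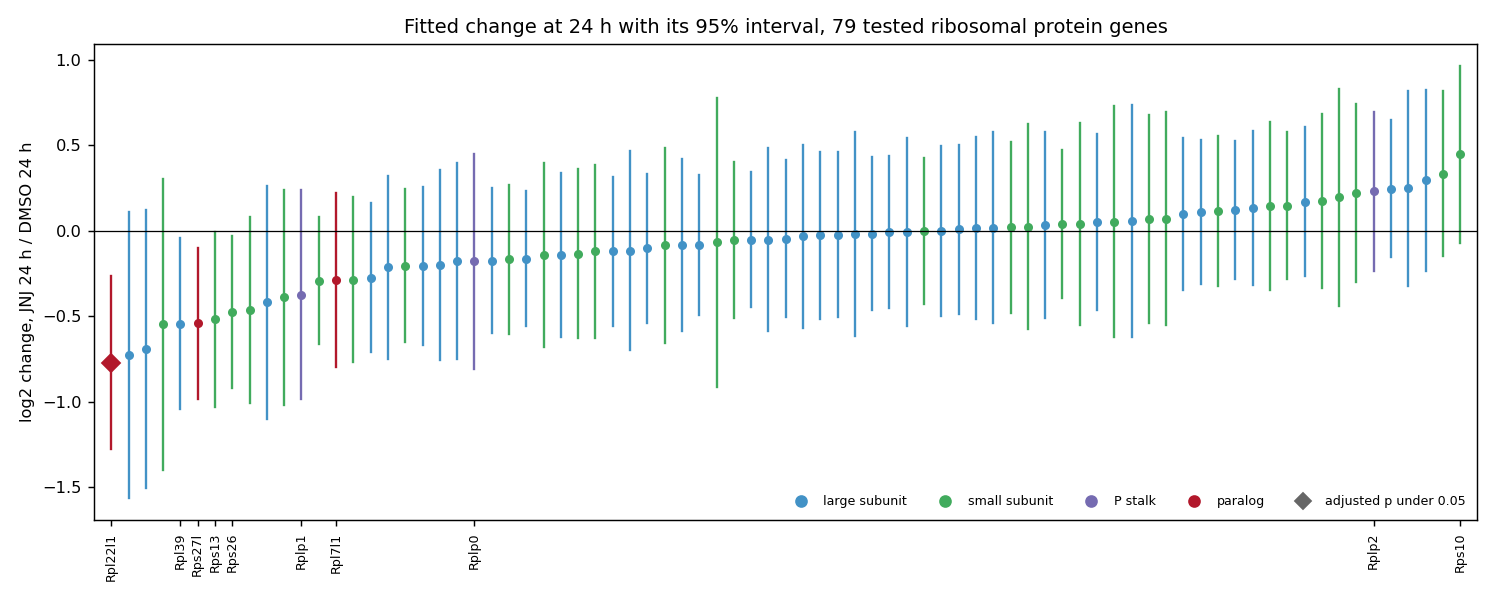
Fitted log2 change with JNJ at 24 h and its 95% interval for the 79 tested members, in order of the change and coloured by class, with names for the paralogs, the P stalk genes, the end members and those at an unadjusted p under 0.05; the diamond is the member called. Rpl22l1 is the lowest at -0.77, and Rps10 the highest at 0.45.

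By class, the 42 tested proteins of the large subunit had a median log2 change of -0.03 with JNJ at 24 h, and the 31 of the small subunit had -0.0018. The stalk genes did not move as a unit: Rplp0 had -0.18, Rplp1 -0.37 and Rplp2 0.23. All 3 expressed paralogs were below 0, at -0.77, -0.54 and -0.29.

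After 2 h with JNJ none of the 79 members was called by edgeR or by DESeq2, where edgeR called 13.7% of all genes. At an unadjusted p under 0.05 there was 1, Rpl7l1 (29% of all genes). The median log2 change of the family was -0.08 (all genes 0.03), and 74 of the intervals lay within 2-fold. Leaving out 1 library moved this median between -0.33 and 0.10, so its sign is not settled. Rps19, the gene most often mutated in Diamond-Blackfan anaemia, had the highest change, 0.12, with 378, 646.5 and 699 CPM with DMSO and 653.5, 590.1 and 625 with JNJ.

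Rpl7l1, whose protein acts in the assembly of the large subunit, was the only member with no overlap at 2 h (25.6% of all genes, 11.7% with JNJ lower). It had 214, 219 and 249.6 CPM with DMSO and 92.3, 163 and 192 with JNJ (log2 -0.61, SE 0.24, edgeR adjusted p = 0.107). Without JNJ 2 h replicate 3 it was called (log2 -0.84, adjusted p = 0.0259). Rpl7 in the same libraries had a log2 of -0.11 (adjusted p = 0.801). Rpl7l1 had 27.0, 19.6 and 16.1 counts per 100 of Rpl7 with DMSO and 10.4, 17.3 and 14.0 with JNJ, ranges that overlap (exact permutation p = 0.2).

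The change from 2 h to 24 h of the JNJ effect was tested as a difference of both effects. No member was called by edgeR or DESeq2 and none had an unadjusted p under 0.05, where edgeR called 4.24% of all genes (22% at an unadjusted p). Rpl22l1 had the lowest difference, -0.69 (adjusted p = 0.246). The fall of Rpl22l1 at 24 h is thus not shown to differ from its 2 h value of -0.09.

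Between the DMSO times no member and no gene at all (0%) was called by edgeR, but the family leaned one way. All 79 members were lower at 24 h than at 2 h, with a median log2 change of -0.59, against -0.01 over all genes. Related lists also had medians below 0. These were -0.66 for 4 ribosomal protein genes that the symbols miss, -0.34 for elongation and termination genes and -0.31 for initiation factor genes. Other mRNAs known for a pyrimidine tract had -0.34, mitochondrial ribosomal protein genes -0.26 and growth control genes 0.07. Other genes whose mean reached 100 CPM had -0.11. At an unadjusted p under 0.05, 59 members were lower, against 4.71% of all genes, and DESeq2 called no member (16 genes in all). The members share their library offsets and so are not separate witnesses. Rps14, a small subunit gene, had 683, 1488 and 1666 CPM at 2 h and 719, 617 and 751 at 24 h (log2 -0.88, SE 0.28, adjusted p = 0.507). DMSO 2 h replicate 1 lay within the 24 h range, and replicates 2 and 3 far above it.

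The same shape recurred in Rplp0, with 1761, 3009 and 3836 CPM at 2 h, and in Rps6, with 307, 538 and 661. Of 79 members, 13 (16.5%) had no overlap, all lower at 24 h, against 17.2% of all genes and 8.25% lower. The median was -0.81 without DMSO 2 h replicate 1 and -0.37 without replicate 3. Without replicate 1, Rps14 (log2 -1.17, adjusted p = 0.0448) and Rps19 (-0.91, adjusted p = 0.0380) were called. Time in culture and the state of the libraries at the 2 times cannot be told apart.

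The knockdowns ask whether loss of a single HDAC does what the drug does. With shHdac1 none of the 79 members was called by edgeR or DESeq2, none had an unadjusted p under 0.05 (12.4% of all genes), and edgeR called 0.749% of all genes. The median log2 change was 0.05, 78 of the intervals lay within 2-fold and 69 within 1.5-fold, so the knockdown bounds are tighter than those of the drug. Rpl22 was the only member without overlap (16.7% of all genes), with 711, 742 and 677 CPM with shLuc and 782, 760.2 and 930.1 with shHdac1 (log2 0.22, adjusted p = 0.584). Rpl7l1 was called higher when shLuc replicate 3 was left out (log2 0.42, adjusted p = 0.0238). That library had 226 CPM of it, against 132 and 138 in the other shLuc libraries.

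With shHdac2 no member was called by edgeR or DESeq2 either (1.68% of all genes by edgeR), and 3 had an unadjusted p under 0.05: all were lower (8.18% of all genes), with Rpl18 and Rps27l among them. The median log2 change was 0.02, and again 78 intervals lay within 2-fold and 69 within 1.5-fold. Rps27 had 2.19, 2.08 and 2.22 CPM with shLuc and 1.77, 1.80 and 1.82 with shHdac2, with no overlap but few reads (log2 -0.27, adjusted p = 0.635). Over all genes 21.2% did not overlap. The 2 knockdowns share the shLuc libraries.

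Set against each other, shHdac1 and shHdac2 gave no called member by edgeR (2.06% of all genes), 1 at an unadjusted p under 0.05 (14.3% of all genes), and 1 by DESeq2. With the replicate block, accepted for these groups, edgeR called 1 member, of 886 genes in all. The median log2 change was 0.02. Rps27 did not overlap between the knockdowns, with shHdac1 higher, which held in either direction for 26.7% of all genes.

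Other genes of protein synthesis were counted from lists. Their counts stand beside 13.7% of all genes called with JNJ at 2 h, and 33.1% at 24 h, 15.1% in the lower direction. None of 4 ribosomal protein genes that the symbols miss was called in any comparison. Of 40 initiation factor genes tested, none was called at 2 h, and 5 were lower and none higher at 24 h with JNJ. Eif4a1, the cap helicase, went from 922 ± 98.3 to 448 ± 31.4 CPM (log2 -1.04, SE 0.23, edgeR adjusted p = 0.00426), and Eif4g1, the scaffold that binds it, had a log2 of -0.65. Eif4g2, a scaffold of cap-independent initiation, had -1.19. Of 15 elongation and termination genes, 1 rose and 1 fell at 2 h, and 2 fell at 24 h: Eef2k, the kinase that inhibits elongation (log2 -1.12), and Abce1, which recycles ribosomes (-0.73).

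Of 25 other mRNAs known for a pyrimidine tract, none was called at 2 h, and 6 were lower and none higher at 24 h. Those with the lowest p were Nap1l1, a histone chaperone gene (722 ± 62.1 to 323 ± 28.8 CPM, log2 -1.16), Npm1, the nucleolar chaperone nucleophosmin (-1.30), and Snhg1, a host of small nucleolar RNAs (-0.93). Of 77 mitochondrial ribosomal protein genes, 5 were lower at 2 h, and 13 lower and 3 higher at 24 h (median log2 -0.27), including Mrps18b (-1.02) and Mrpl24 (0.70). Over all genes, 13.7% were called with JNJ at 2 h and 33.1% at 24 h, 15.1% in the lower direction. The difference between these lists and the cytosolic family was not tested.

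Growth control genes are those that act on ribosome synthesis, such as the parts of mTOR complexes. Of 27, 2 rose and 3 fell with JNJ at 2 h: Mxd1, an antagonist of Myc (log2 1.76), and Sesn2, an inhibitor of mTOR complex 1 (1.42), rose, and Mlst8, a subunit of mTOR complexes (-1.36), Myc (-1.18) and Akt1s1, an mTOR complex 1 inhibitor (-0.99), fell. At 24 h, 4 rose and 3 fell. Rps6ka1, the S6 kinase RSK1, went from 51.2 ± 11.0 to 202 ± 25.5 CPM (log2 1.98, SE 0.20, edgeR adjusted p = 6.34e-05), and Deptor, an mTOR inhibitor (1.68), and Mxd1 (1.13) rose too. Mlst8 (-0.98), Akt1s1 (-1.13) and Larp1, the protein that binds pyrimidine tracts (-0.71), fell. None was called with shHdac1 or shHdac2, where 0.749% and 1.68% of all genes were. With JNJ, 13.7% of all genes were called at 2 h and 33.1% at 24 h.

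In the list on p53 control by free ribosomal proteins, 8 genes were tested, of which 1 rose and 3 fell with JNJ at 24 h. Cdkn1a, a p53 target, rose (log2 1.80), and Trp53, the p53 gene (-1.25), Npm1, and Gltscr2, a nucleolar partner of Rpl5 and Rpl11 (-0.50), fell. At 2 h Cdkn1a rose (1.15) and Gltscr2 fell (-0.57). With shHdac2, Cdkn1a (-0.99) and Mdm4 (-0.59), a p53 inhibitor gene, fell, and Mdm4 was also lower with shHdac2 than with shHdac1 (0.53 for shHdac1 over shHdac2). None of the 8 was called with shHdac1. Over all genes, 13.7% were called with JNJ at 2 h and 33.1% at 24 h. With shHdac1 it was 0.749%, with shHdac2 1.68%, and between the knockdowns 2.06%.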

How the data were processed

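RNA-seq of 21 SMB21 libraries was used. Per the labels' protocols, stranded mRNA libraries were sequenced as single-end reads of 75 bases, and per the submitters' processing notes STAR 2.5.1b and mm9 were used. The authors deposited 1 table of unnormalised counts, with gene symbols as rows and libraries as columns. Annotation, strand setting and treatment of multi-mapped reads: not given in the sources used here. Therefore close paralogs and overlapping genes are uncertain.

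Separate models for the 12 drug and the 9 shRNA libraries were fitted in edgeR 4.0.16 (R 4.3.3): filterByExpr (minimum count 10, total 15) left 14467 and 13612 genes, with TMM scaling, group as the only term, two-sided quasi-likelihood tests and Benjamini-Hochberg adjustment over all genes. Genes were called at an adjusted p under 0.05. Intervals are 95%. CPM are edgeR's within each fit. DESeq2 1.42.0, other scalings, filters and sample sets were alternatives, as was a replicate block: residuals of same-numbered libraries correlated at 0.566, 0.656 and 0.609 at 24 h, and at -0.0047, 0.651 and 0.585 at 2 h, so pairing was accepted at 24 h. It was also accepted for the shRNA groups, where replicates 1 and 2 also correlate across numbers. For the drug libraries the block was fitted over both times together. Scripts were tested on simulated data.

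Members and lists were chosen with earlier results of these data known. Named were the paralogs with their partners, landmark members, called members, the highest and lowest members, and the 3 called genes with the lowest p each way in each other list. Members without overlap, near the threshold or called under another setting were named after their values were seen. Transcript lengths and shared stretches are from GENCODE M21, start sites from RefSeq (GRCm38.p6). Neither is the authors' build, and no coordinate was joined to the counts. Results for a few genes are not reported here.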

Additional observations from a re-analysis of the deposited data

Results flagged for a closer look

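Ribosomal pseudogene rows, left out of the family, also held reads. Summed over the 21 libraries, Rpl14-ps1 had 17283 reads, Rps19-ps3 1439, Rps15a-ps4 595, Rps15a-ps6 403 and Rpl31-ps12 25. These are above the limit of 3 counts that an empty row allows. Of 7 such rows 4 were tested in the same fits, and none was called in any comparison. With JNJ at 24 h, where 33.1% of all genes were called, their median log2 change was -0.81. The JNJ 24 h libraries lie on both sides of the split described next, so this median is uncertain. Rpl14-ps1 had 1114 to 2146 counts in 10 libraries and 157 to 296 in the other 11, with JNJ 24 h replicate 1 in the first set and replicates 2 and 3 in the second. Of 6 rows at least 2-fold higher in every library of the first set than in any of the second, Rpl14-ps1, Npm3-ps1 and Tubb2a-ps2 are named as pseudogenes, and the others are Gm3258, Gm6251 and Mir682. None of the 79 tested ribosomal protein genes split this way, but with only 6 of 19932 rows doing so, this says little about the family. Comparisons within the shRNA libraries, at 2 h and between the DMSO times each lie inside 1 set.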

How the results depend on the processing

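The number of members called with JNJ at 24 h, 1, became 2 with library totals (Rpl22l1 and Rps10, median log2 of members 0.11, of all genes 0.17), 2 when libraries were scaled on the members (chosen after seeing the data), 7 with a replicate block, 7 in the compared groups only, 5 with all 21 libraries in 1 fit and 0 in the drug libraries with more Rpl14-ps1 (chosen after seeing the data, with JNJ 24 h replicate 1 alone assumed to vary like the other groups; median -0.21). Leaving out 1 library gave 0 to 1. The count of 0 at 2 h became 1 with a replicate block (Rpl7l1, log2 -0.66, adjusted p = 0.0122) and 0 to 1 without 1 library. Between the DMSO times it became 5 with a replicate block (Rpl24, Rps23, Rpl35a, Rpl23 and Rpl38, all lower, of 108 genes in all; the numbers did not pair these libraries) and 0 to 2 without 1 library, and scaling on the members brought the median to -0.027, with all genes then at 0.48. With shHdac1 leaving out 1 library gave 0 to 1, and between the knockdowns DESeq2 and the replicate block each called 1. The block changed no other call of members. Family shares of reads outside the 50 genes with most counts were 3.70% and 3.16% with DMSO and 3.46% and 2.85% with JNJ (2 h, then 24 h), and 3.33%, 3.31% and 3.28% with the hairpins against luciferase, Hdac1 and Hdac2. These shares also leave out the members among those 50 genes. For the part of the family that is left, the 24 h share was lower with JNJ, where that of all 84 genes was higher. The 24 h median of members changed sign with library totals. It also changed sign when 1 library was left out, running from -0.14 to 0.04, as did the 2 h median, from -0.33 to 0.10. No called value changed its direction. Genes called in all moved more: at 2 h 1982, but 3455 with the block, 3185 with all 21 libraries and 650 in the compared groups only; with shHdac1 102, but 523 with the block, 564 by DESeq2 and 1512 without shLuc replicate 3; with shHdac2 229, but 801, 819 and 1212. With 3 libraries a group, intervals of the drug comparisons mostly reach past 1.5-fold, so for most members a change of that size lies within the interval.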
